A study of Mus musculus with 16 samples.

Results

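The genes of the cytosolic ribosomal proteins were followed through 8 peak lists of mouse chromatin. The members were the protein-coding genes of the GENCODE M21 annotation on autosomes whose symbol begins with Rpl or Rps and a digit, plus Rpsa. The S6 kinase genes (Rps6k), Rps19bp1 and symbols ending in -ps and digits were left out. This gave 78 genes of 20807 autosomal protein-coding genes, of which 30 carry names of the small (40S) subunit, 40 carry names of the large (60S) subunit and 8 are paralogue genes (Rpl22l1, Rps27l, Rps27rt, Rpl10l, Rpl36al, Rpl39l, Rpl3l and Rpl7l1).

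Chromatin immunoprecipitation followed by sequencing (ChIP-seq) had been carried out with an antibody against histone H2B carrying a single ubiquitin (H2Bub1) and with an antibody against RPB1, the largest subunit of RNA polymerase II (Pol II). The cells were Atxn7l3+/+ (WT) or Atxn7l3-/- (KO) mouse embryonic stem cells (mESCs, below also stem cells) and mouse embryonic fibroblasts (MEFs, below also fibroblasts), all of the strain background DBA/2 x C57BL/6. The null allele was made by germline recombination, so it is present in every cell of the animal, and it removes most exons of Atxn7l3, which encodes the adaptor that several H2B deubiquitylases need. Stem cells were kept without feeder cells in serum with LIF and the kinase inhibitors PD0325901 and CHIR99021 (CH99021 in the labels). Fibroblasts came from E10.5 embryos, and no group received a treatment. Each combination of cell type, genotype and antibody was 1 library, so no difference below has a replicate check, no p-value is given, and 95% intervals cover counting error over the genes of 1 library only.

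Ribosomal protein genes are expressed in nearly every growing cell, and their products must be made in matched amounts because each mature ribosome holds a single copy of most of them. Their mRNAs begin with a cytidine followed by a run of pyrimidines, the 5' terminal oligopyrimidine (TOP) motif, through which the mTOR pathway controls their translation. Many of these genes carry small nucleolar RNAs (snoRNAs) in their introns, and most have processed pseudogenes elsewhere in the genome. H2Bub1 is deposited over transcribed gene bodies along with elongating Pol II.

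The annotated start sites were searched for runs of pyrimidines. RefSeq start sites on GRCm38.p6 were found for 59 of the 78 members, and each line below gives 30 bases before the start and 30 bases from the start onward, with the longest run of C and T that reaches within 20 bases of the start in capitals. The first 3 hold the longest runs, of 21, 20 and 18 bases, and belong to the 60S proteins Rpl7a, Rpl27a and Rpl35.
Rpl7a (chr2:26910777-26910836, plus strand): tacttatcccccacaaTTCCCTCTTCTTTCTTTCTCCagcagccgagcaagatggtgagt
Rpl27a (chr7:109519165-109519224, plus strand): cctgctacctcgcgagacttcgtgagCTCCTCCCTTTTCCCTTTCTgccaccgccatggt
Rpl35 (chr2:39005102-39005161, minus strand): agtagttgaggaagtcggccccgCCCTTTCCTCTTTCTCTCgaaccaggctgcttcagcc
The next 7 belong to genes with high Pol II enrichment described below, and their runs have 3 to 13 bases.
Rpl41 (chr10:128549139-128549198, minus strand): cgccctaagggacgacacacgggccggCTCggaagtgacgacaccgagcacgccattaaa
Rps12 (chr10:23787180-23787239, minus strand): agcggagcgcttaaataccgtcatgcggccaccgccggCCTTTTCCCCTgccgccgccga
Rps9 (chr7:3704011-3704070, plus strand): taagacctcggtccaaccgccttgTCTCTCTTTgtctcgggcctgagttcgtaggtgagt
Rps18 (chr17:33955636-33955695, minus strand): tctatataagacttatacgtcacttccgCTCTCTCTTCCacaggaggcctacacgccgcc
Rpl31 (chr1:39367821-39367880, plus strand): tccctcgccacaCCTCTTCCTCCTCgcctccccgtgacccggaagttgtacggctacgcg
Rps2 (chr17:24720033-24720092, plus strand): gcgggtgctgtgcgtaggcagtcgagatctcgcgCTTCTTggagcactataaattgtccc
Rps23 (chr13:90923092-90923151, plus strand): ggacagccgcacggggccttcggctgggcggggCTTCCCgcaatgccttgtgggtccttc
The last 3 are Rps27, a protein of the 40S subunit, and its paralogues Rps27l and Rps27rt. In the promoter windows, Rps27 and Rps27rt share an identical stretch of 38 bases, whereas the longest stretch shared by Rps27 and Rps27l has 8 bases.
Rps27 (chr3:90213619-90213678, minus strand): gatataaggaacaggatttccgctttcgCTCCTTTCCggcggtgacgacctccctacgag
Rps27l (chr9:66946056-66946115, plus strand): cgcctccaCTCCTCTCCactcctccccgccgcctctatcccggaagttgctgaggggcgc
Rps27rt (chr9:114982710-114982769, minus strand): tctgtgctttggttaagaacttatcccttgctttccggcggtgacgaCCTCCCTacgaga

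A run of at least 8 pyrimidines was found in 28 of the 59 matched members (47.5%) and in 20.2% of the 15686 matched autosomal genes. A run of at least 12 was found in 11 members (18.6%) and in 5.34% of all genes, and a run of at least 8 that covers the start base was found in 13 members (22.0%) and in 3.16% of all genes. The annotated start base was C in 21 members (35.6%) and in 14.0% of all genes, and G in another 21 members and in 39.8% of all genes. Most matched members thus had no such run over their annotated start, and some of the printed runs, such as that of Rpl31, lie wholly before it. In the 300 bases of the promoter table, from 250 before to 50 after the start, 6 motifs were searched on both strands. The GC box GGGCGG was found in 34 members (57.6%) against 48.8% of all promoters, the ETS-family motif CCGGAAGT in 12 (20.3%) against 5.67%, and the palindrome CTCGCGAG in 6 (10.2%) against 1.34%. The E-box CACGTG was found in 5 members (8.47%) against 8.10%, the YY1 motif AAGATGGCG in 4 (6.78%) against 2.02%, and the TATA box letters TATAAA in 3 (5.08%) against 12.9%. No motif here contains another, and a match says only that these letters are in the window.

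Members were short. Their median length was 3328.5 bp, from 374 bp for Rps27rt to 31449 bp for Rps14, against 17629 bp for all autosomal genes, and 4 gene records (Rpl11, Rps14, Rpl3 and Rps15a) were longer than 10000 bp. They lay on 18 chromosomes, 27 of them held 55 annotated snoRNAs, and 20 overlapped another protein-coding gene. Windows of 50 bases that recur elsewhere in the genome made up a median of 9.37% of a member (0.534% to 79.1%, highest in Rps27rt), and were more frequent in exons (13.8%) than in introns (3.103%). Reads from such windows cannot be placed with certainty. Of 178 ribosomal protein pseudogenes at least 1000 bp from any protein-coding gene, at most 2 had a peak in any list.

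The 4 Pol II lists held 11963 to 45870 peaks and the 4 H2Bub1 lists 19725 to 48952, and in both cell types the KO list was the shorter one for Pol II and the longer one for H2Bub1. The read depth of the libraries is unknown, and deeper sequencing alone can yield more numerous and broader peaks. The genotype check was partial, since the Pol II promoter peak of Atxn7l3 lies outside the removed exons: over the stretch from exon 2 to exon 12, which the allele removes, H2Bub1 peaks covered 100% in WT and 13.03% in KO stem cells but 21.6% and 19.6% in fibroblasts, and Pol II peaks 20.7% and 11.9%, and 19.3% and 10.9%. A large loss was thus seen for H2Bub1 in stem cells alone, and the WT values were already low elsewhere. Over the whole gene, H2Bub1 covered 22.03% in WT and 65.3% in KO fibroblasts, which did not fall. Pol II promoter peaks lay at Pou5f1, Sox2 and Nanog in the stem cell lists alone and at Col1a1, Col1a2, Thy1 and Twist2 in the fibroblast lists alone, as the labels say. Exceptions among the 10 markers were Klf4, which had a peak in all 4 lists, Tfcp2l1, which had one in both stem cell lists and in KO fibroblasts, and Esrrb, which had none.

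Pol II occupied nearly every ribosomal protein promoter in all 4 libraries. A Pol II peak within 1000 bp of the transcription start site (TSS) was found at 71 of 78 members (91.03%, exact 95% interval 82.4 to 96.3) in WT stem cells and at 69 in KO, against 35.3% and 32.1% of all autosomal genes. For fibroblasts the numbers were 73 in WT and 72 in KO, against 55.3% and 52.3% of all genes. The same 69 members had a peak in all 4 libraries, which 26.1% of all genes had. No member had a promoter peak in KO alone, against 4.85% of all genes in stem cells and 1.51% in fibroblasts. Rpl18 and Rpl39l in stem cells and Rps10 in fibroblasts had one in WT alone, against 8.04% and 4.43%. The RefSeq start of Rpl18 lies 2614 bp from the GENCODE start used for its call.

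Of the 9 members that lacked a promoter peak in at least 1 library, 3 were paralogue genes without a peak in any. These were Rps27rt, Rpl10l and Rpl3l, of which Rpl10l and Rpl3l are known for expression in testis and in muscle. For 7 members the best supported transcript started more than 1000 bp from the start of the gene record, among them Rps24 (3593 bp), Rps14 (27498 bp), Rpl17 (1919 bp) and Rps10 (1124 bp), which lacked a peak in 2, 2, 4 and 3 libraries. At the supported start, each of these 4 had a peak in all libraries. The fold enrichment of Rps14 was then 10.7 in WT and 9.39 in KO stem cells and 27.8 and 19.6 in fibroblasts. That of Rps10 was 8.06 and 4.82 in stem cells and 23.1 and 26.1 in fibroblasts, so its peak in WT fibroblasts alone was no longer seen. With supported starts, 73 members had a peak in all 4 libraries and 3 in none, leaving Rpl18 and Rpl39l with a peak in some.

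Pol II enrichment at these promoters was high within each list. The deposited fold enrichment divides the pileup at the peak summit by its local background and sets no common level across libraries. Over the members the median reached 7.87 (95% interval 7.45 to 9.03) for WT and 7.99 (7.28 to 8.704) in KO stem cells, against 4.39 and 4.53 for all genes with a promoter peak. WT fibroblasts had 25.2 (22.9 to 27.7) and KO fibroblasts 19.95 (18.3 to 22.3), against 13.3 and 11.6. The members' intervals therefore lay above the median of all genes in each library. The strongest 10% of all promoters held 41 of 71 members in WT and 37 of 69 in KO stem cells, and 43 of 73 and 29 of 72 in fibroblasts.

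**Figure D1:**
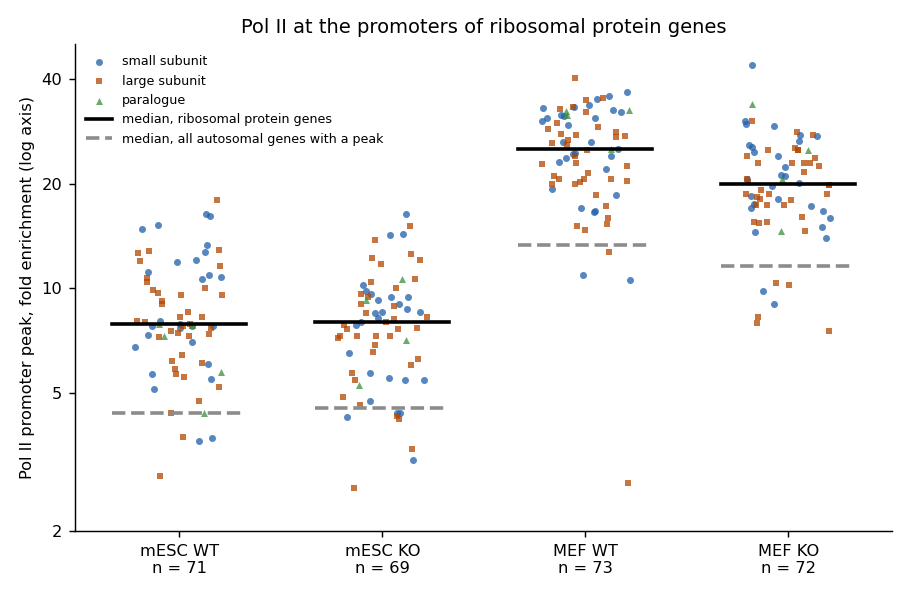
Fold enrichment (log axis) of the strongest Pol II peak within 1000 bp of the TSS of each ribosomal protein gene, by library, with 1 point per gene, the median of the members as a black line and the median of all autosomal genes with a peak as a dashed grey line. The members' medians are 7.87 and 7.99 in WT and KO mESCs and 25.2 and 19.95 in WT and KO MEFs, all above the grey lines.

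Rpl41, the gene of the smallest ribosomal protein, had the highest fold of the members at annotated starts in both WT lists. Its fold was 17.9 in WT and 15.1 in KO stem cells and 40.2 and 30.3 in fibroblasts. High folds in WT stem cells were also those of the 40S genes Rps20 (16.3), Rps12 (16.1) and Rps23 (14.8). In WT fibroblasts the next were Rps9 (36.7), Rps2 (35.8), Rpl31 (35.2) and Rps18 (34.9). The order depends on the start that is used: at their supported starts, Rps2 had a fold of 21.4 in WT stem cells and Rpl3, a 60S protein near the peptidyl transferase centre, one of 20.8, both above Rpl41. Across the 70 members with a peak in both WT lists, Spearman's rho between stem cells and fibroblasts was 0.37, as a description over genes that share the libraries.

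Between genotypes, most Pol II folds at ribosomal protein promoters were lower in KO fibroblasts, as were most of those of all genes. The log2 ratio, KO over WT, had a median of -0.29 (95% interval -0.50 to -0.11) over 72 members, and 55 of them were lower in KO and 17 higher, against a median of -0.22 with 67.5% lower and 32.5% higher over all genes. A decrease by over 1.5 times was found for 24 of the 72 members, a larger share than the 23.9% of all genes (the difference was not tested), and an increase of that size for 3, against 5.76%. In stem cells the median was -0.12 (-0.25 to 0.07) over 69 members, with 40 lower in KO and 29 higher, against 0.02, 47.8% and 52.2% for all genes. There, 9 members were lower by over 1.5 times and 3 were higher, against 10.9% and 10.8% of all genes. These intervals cover counting error over the genes of 1 library pair only, so no difference between genotypes was tested.

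The members with the lowest ratios were partly shared between the cell types. A decrease by over 1.5 times in both was found for 5 of 69 members, among them Rps13, Rps23, Rpl21 and Rpl23a, against 2.57% of the 5437 genes with a ratio in both. Rpl23a, a 60S protein near the exit of the peptide tunnel, had a fold of 9.03 in WT and 3.45 in KO stem cells, and of 26.3 and 17.4 in fibroblasts. Its log2 ratio of -1.39 was the lowest in stem cells, followed by Rpl21 (-0.95). In fibroblasts Rpl37a (-1.10, from 33.1 to 15.5), Rpl36 (-0.99) and Rpl21 (-0.99) were lowest.

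Higher folds in KO stem cells were found at Rpl36al (0.89 on the log2 scale), Rpl15 (0.70) and Rps3 (0.59). Rps3, a 40S protein that also takes part in DNA repair, had folds of 3.64 in WT and 5.47 in KO stem cells and 22.1 and 26.5 in fibroblasts. In fibroblasts the highest log2 ratios were those of Rpl3 (1.45), Rpl37 (0.83) and Rpl7 (0.76). The value of Rpl3 rests on the annotated start, 8462 bp from the supported one, where the fold was 2.76 in WT and 7.53 in KO. At the supported start it was 30.01 in WT and 37.7 in KO fibroblasts.

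Summits lay about 100 bp from the start. The distance between TSS and summit had medians of 129.5 and 103 bp for WT and KO stem cells and 106 and 99.5 bp in fibroblasts, against 72, 71, 78 and 85 bp over all genes. In fibroblasts the 73 and 72 members with a promoter peak had 72 and 71 distinct peaks in WT and KO, so not all of their values there are independent.

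Pol II peaks covered most of the median member in fibroblasts and a smaller share in stem cells, and the share was lower in KO for most members. The members' promoter peaks were 1118 and 847 bp wide at the median for WT and KO stem cells and 3237 and 1844 bp for fibroblasts. A member's share inside Pol II peaks had a median of 30.2% (25.3 to 36.4) in WT and 21.3% (17.8 to 26.2) in KO stem cells, and of 90.4% (82.9 to 96.8) and 58.8% (51.8 to 71.2) in fibroblasts. The share was lower in KO for 62 of 78 members in stem cells and for 60 in fibroblasts, against 33.7% and 46.7% of all genes, many of which have no Pol II peak in either list. Of the 910 genes of at most 6000 bp with a promoter peak in all 4 libraries, members included, 67.9% and 65.6% had a lower share, with medians of 26.95% and 18.1% in stem cells and 72.002% and 47.7% in fibroblasts.

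**Figure D2:**
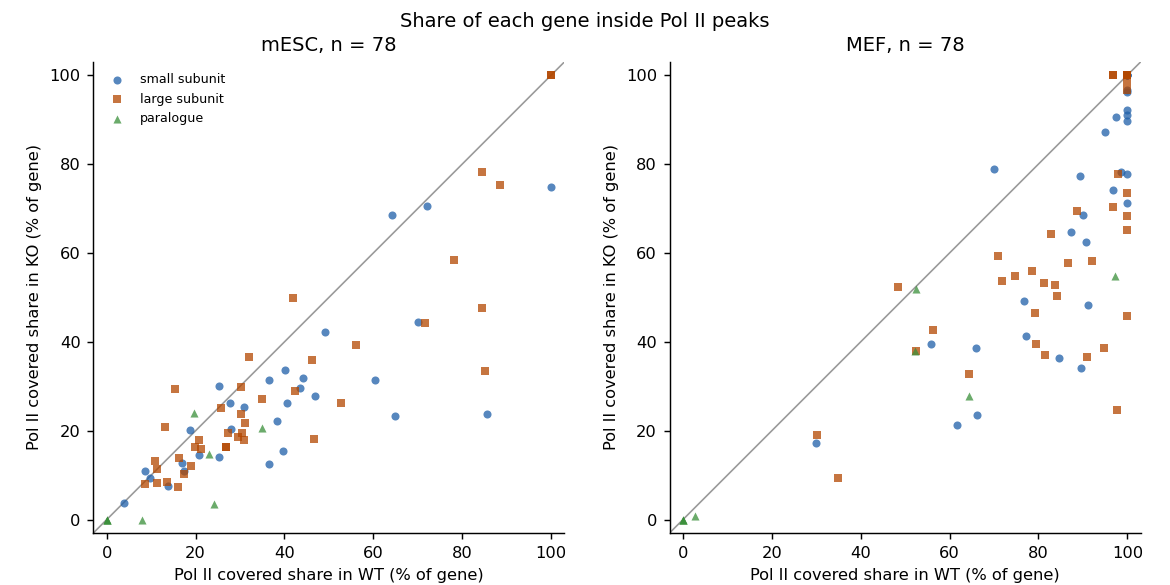
Share of each of the 78 ribosomal protein genes inside Pol II peaks (% of the gene record) in KO against WT, for mESCs on the left and MEFs on the right, with 1 point per gene and the line of equal shares in grey. Most points lie below the line, 62 in mESCs and 60 in MEFs, and the WT MEF shares crowd towards 100%.

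In WT fibroblasts, 24 members lay wholly inside Pol II peaks, against 1.72% of all genes, and 13 did in KO, against 1.03%. In stem cells there were 3 in WT (Rpl36, Rpl41 and Rps28, against 0.413% of all genes) and 2 in KO (0.308%). Rpl41 and Rpl36, with 1192 and 828 bp, were covered from end to end in all 4 libraries. Rps9 went from 64.9% in WT to 23.3% in KO stem cells and from 100% to 77.9% in fibroblasts. Rpl37a went from 97.7% in WT to 24.8% in KO fibroblasts, with 26.9% and 16.4% in stem cells. The next largest loss in fibroblasts was that of Rpl27, from 94.8% to 38.7%. The longest stretches inside Pol II peaks in WT stem cells were those of Rpl3 (5972 bp), Rps28 (5536 bp) and Rpl12 (3202 bp), and in WT fibroblasts Rps15a (10001 bp), Rps14 (9433 bp) and Rpl11 (7614 bp). A Pol II summit in the body beyond 1000 bp of the TSS was found in 22 members in WT and 21 in KO stem cells, against 17.9% and 11.5% of all genes, and in 32 and 47 in fibroblasts, against 32.8% and 25.9%.

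Pol II was also found past the ends of ribosomal protein genes. Over the 2000 bp after the transcript end, the covered share had a median of 90.7% in WT and 68.8% in KO stem cells and of 100% and 94.95% in fibroblasts, against 0% over all genes in each library. At least 50% of this window was covered for 62 and 53 members in WT and KO stem cells and for 74 and 71 in fibroblasts, against 5.01%, 1.98%, 19.8% and 10.0% of all genes. In WT stem cells 87.2% of ribosomal protein genes were inside a Pol II peak at the TSS, 21.8% at 1000 bp downstream and 41.03% at the transcript end, and after the end the maximum was 84.6% at 1400 bp. In KO the corresponding values were 79.5%, 12.8% and 24.4%, with a maximum of 78.2% at 1050 bp. The 5437 genes whose promoters carried Pol II in all 4 libraries, members included, had 85.2%, 14.4% and 8.15% in WT and 81.6%, 10.6% and 4.56% in KO at these positions, close to the members at the TSS and below them at the transcript end. At 2000 bp after the end, 51.3% of members were inside a peak in KO stem cells and 80.8% in WT, against 5.702% and 12.9%. Rpl11, Rpl10l, Rpl39l and Rps27rt had no Pol II in this window in any library. The window starts at the end of the gene record, which for Rpl11 is longer than 10000 bp, and it was not recomputed at the end of a supported transcript. Within its record, Rpl11 had one of the longest stretches inside Pol II peaks in WT fibroblasts.

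**Figure D3:**
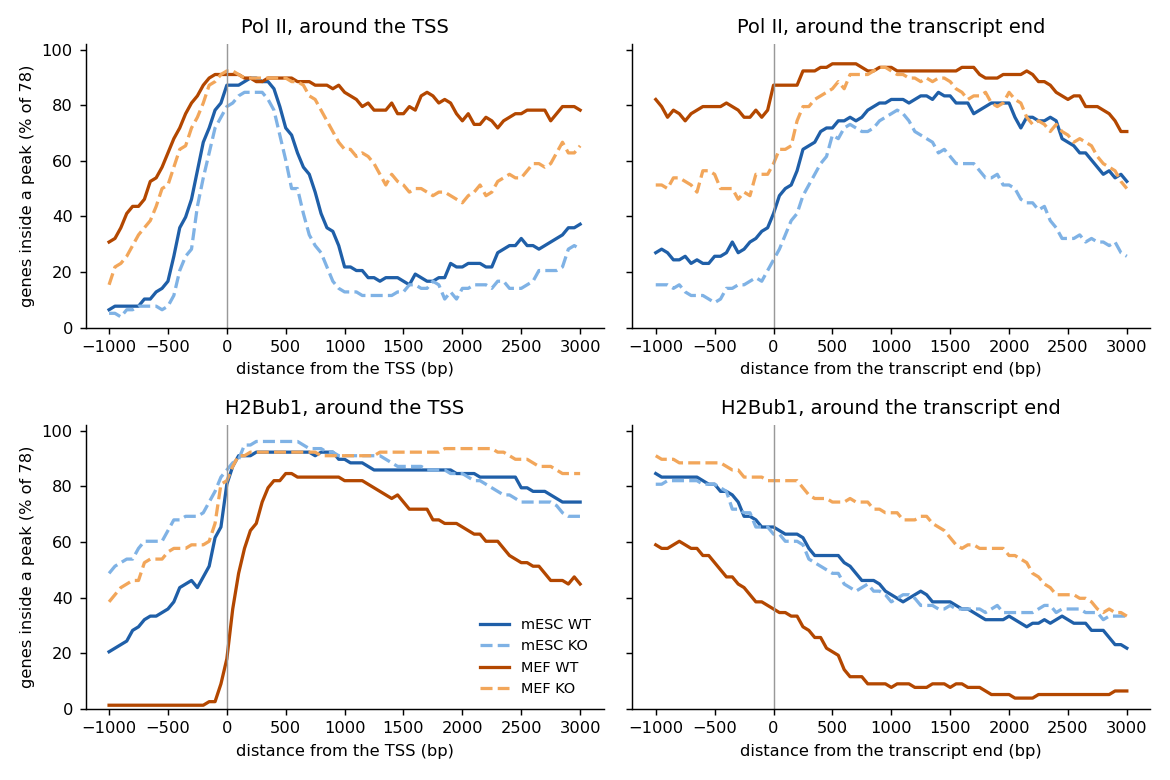
Share of the 78 ribosomal protein genes (%) that lie inside a Pol II peak (top) or an H2Bub1 peak (bottom) at each distance in bp from the TSS (left) or the transcript end (right), with WT as solid and KO as dashed lines and mESCs in blue and MEFs in orange. Pol II in mESCs has 1 maximum near the TSS and another after the transcript end, and H2Bub1 in WT MEFs rises from 17.9% at the TSS to 84.6% at 500 bp.

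H2Bub1 covered most ribosomal protein genes from near the start to near the end. All 70 members that are not paralogues had H2Bub1 in the gene body in all 4 libraries at the deposited threshold. Of the 78 members, 75 carried a peak in WT and 78 in KO stem cells, against 55.7% and 62.1% of all genes, and 74 in WT and 75 in KO fibroblasts, against 31.7% and 54.3%. No member had H2Bub1 in WT alone, against 3.13% of all genes in stem cells and 0.293% in fibroblasts. The covered share had a median of 100% (91.03 to 100) in WT and 100% (94.8 to 100) in KO stem cells, and of 75.7% (64.6 to 80.9) in WT and 100% in KO fibroblasts. Members wholly inside H2Bub1 peaks numbered 41 in WT and 40 in KO stem cells, against 1.55% and 5.16% of all genes, and 7 and 53 in fibroblasts, against 0.207% and 6.0%.

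The covered share had a median change of 0 between genotypes in stem cells and was higher in KO fibroblasts. In stem cells 22 members were higher in KO, 25 lower and 31 equal, against 54.2% of all genes higher and 9.83% lower. Of the 910 genes of at most 6000 bp with a Pol II promoter peak in all 4 libraries, 63.0% were higher and 16.9% lower there. All 8 paralogue genes were higher, and without them 14 of 70 members were (4 of 30 in the small and 10 of 40 in the large subunit). In fibroblasts the median of KO minus WT was 17.2 percentage points (10.8 to 22.7), with 66 members higher, 2 lower and 10 equal, against 53.8% and 0.529% of all genes. Of the same 910 genes, 86.5% were higher and 0.549% lower in fibroblasts, with a median of 55.2 points. A member that is already at 100% cannot gain, which holds for 41 members in stem cells. The H2Bub1 lists covered 71.6 and 151 Mb in stem cells and 48.1 and 223 Mb in fibroblasts, WT before KO. With peaks of a -log10 q of at least 3 alone, 48 members instead of 74 had a peak in WT fibroblasts, against 5.76% of all genes, the median share there was 42.6%, and the difference was 34.1 points.

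**Figure D4:**
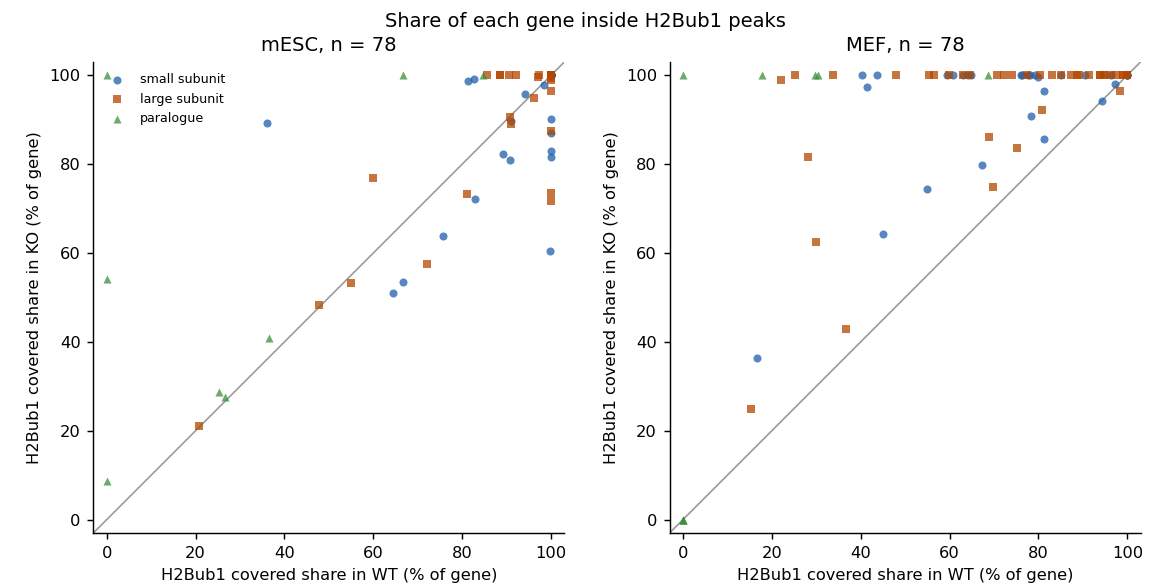
Share of each of the 78 ribosomal protein genes inside H2Bub1 peaks (% of the gene record) in KO against WT, for mESCs on the left and MEFs on the right, with 1 point per gene and the line of equal shares in grey. In mESCs points lie on both sides of the line (22 above, 25 below), and in MEFs 66 of 78 lie above it.

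The largest losses in stem cells were those of Rps3a1, a 40S protein, from 99.8% in WT to 60.4% in KO, Rpl27a, from 100% to 71.8%, and Rpl4, from 100% to 73.4%. In fibroblasts Rps3a1 had 96.3% and 100%, Rpl27a 55.4% and 100%, and Rpl4 69.8% and 74.8%, so all 3 were higher in KO there. A share at least 10 points lower in KO stem cells and at least 10 points higher in KO fibroblasts was found for 10 members, against 1.32% of all genes. The largest gains in stem cells were those of Rps27rt (0% to 100%), Rpl10l (0% to 54.2%) and Rps14 (36.1% to 89.2%), whose long record overlaps Ndst1. The largest gains in fibroblasts were those of Rps27rt (0% to 100%), Rps27l (17.8% to 100%) and Rpl21 (22.2% to 98.9%). Rps27rt, of 374 bp, overlaps the gene Osbpl10, and a peak there cannot be told apart from one of Osbpl10.

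Around the start, H2Bub1 covered fewer members in WT fibroblasts than in the other libraries. Of the ribosomal protein genes, 80.8% were inside an H2Bub1 peak at the TSS in WT and 85.9% in KO stem cells, and 17.9% and 82.1% in WT and KO fibroblasts. Among the 5437 genes whose promoters carried Pol II throughout, the shares were 48.5%, 83.7%, 10.4% and 77.7%, so the low value of WT fibroblasts was shared with them. At 500 bp downstream the values were 92.3%, 96.2%, 84.6% and 92.3%, against 75.2%, 94.004%, 32.1% and 92.5% of those genes. At 1000 bp upstream they were 20.5%, 48.7%, 1.28% and 38.5%, against 17.7%, 40.7%, 6.24% and 42.2%, so the higher share ahead of the start in KO was found for both groups of genes. At 1000 bp after the transcript end, 41.03% and 38.5% of members were inside a peak in WT and KO stem cells, and 7.69% and 70.5% in fibroblasts, against 17.5%, 21.96%, 3.84% and 22.7%. Peaks over the members had a median width of 4987 and 5291.5 bp in stem cells and of 2703.5 and 7007 bp in fibroblasts, again WT before KO.

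The H2Bub1 fold of ribosomal protein genes within each list was lower in KO stem cells and higher in KO fibroblasts. Like the Pol II fold, it sets no common level across libraries, so a lower fold does not by itself show less H2Bub1. The paper itself reports more H2Bub1 over expressed genes in KO cells of both types, after scaling to intergenic regions. For a broad peak the deposited fold is a mean over the whole peak, which can reach beyond the gene, and the value of a gene is the mean of its peaks weighted by their overlap. Over the members the median reached 5.06 (4.84 to 5.74) for WT and 4.48 (4.33 to 4.699) in KO stem cells, and 3.54 (3.47 to 3.67) and 4.66 (4.45 to 5.05) in fibroblasts. All genes with a peak had medians of 2.799, 2.99, 3.11 and 3.46 in the same order. In WT stem cells, 73 of the 75 members with a peak were among the strongest 10% of all genes, against 58 of 78 in KO, and in fibroblasts 32 of 74 in WT and 28 of 75 in KO.

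For stem cells the log2 ratio, KO over WT, had a median of -0.14 (-0.20 to -0.09), with 59 of 75 members lower in KO and 16 higher, whereas over all genes the median was 0.07, with 34.3% lower and 65.7% higher. A decrease by over 1.5 times was found for 7 members (among them Rpl8, Rpl12, Rpl32, Rps12, Rps14 and Rpsa), against 0.42% of all genes, and an increase of that size for 0, against 1.76%. Among the 1094 genes of all kinds in the strongest 10% of WT stem cells with a peak in both, members included, the median was -0.08 and 63.6% were lower, and among the strongest 5% the median was -0.14. Of these 1094 genes, 73 were members, so the strongest 10% are not a separate comparison. The sets of the strongest 10% and 5% were chosen by their WT fold, and the part of a high WT value in the lower ratio was not tested. The median log2 ratio was -0.14 for the 27 members whose peaks were no wider in KO and -0.15 for the 48 whose peaks were wider, and the part of peak width in the ratio was not tested.

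For fibroblasts the median log2 ratio was 0.38 (0.34 to 0.44), with 71 of 74 members higher in KO and 3 lower (Rpl3, Rpl6 and Rps21), against 0.34, 82.6% and 17.4% for all genes. An increase by over 1.5 times was found for 17 members, against 21.6% of all genes, and a decrease of that size for 0, against 0.307%. A lower fold in KO stem cells together with a higher one in KO fibroblasts was found for 55 of the 74 members with peaks in all 4 libraries, against 22.4% of the 6024 genes with a ratio in both cell types. The difference between the cell types was not tested.

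**Figure D5:**
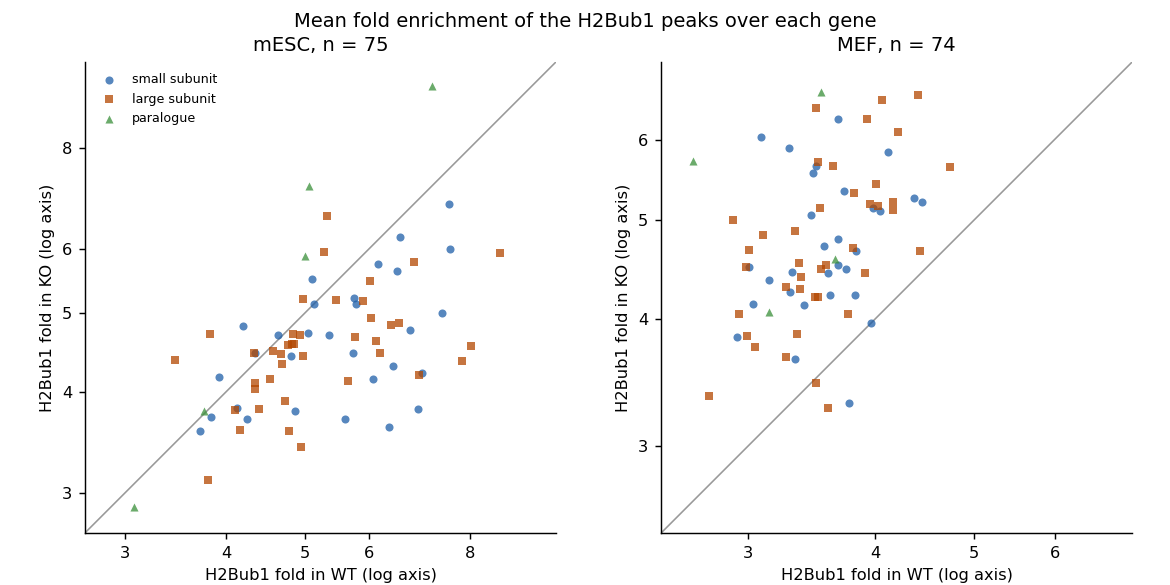
Mean fold enrichment of the H2Bub1 peaks over each ribosomal protein gene in KO against WT (log axes), for mESCs on the left (75 genes) and MEFs on the right (74 genes), with the line of equal folds in grey. In mESCs 59 of 75 points lie below the line, and in MEFs 71 of 74 lie above it.

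Members known for roles beyond protein synthesis were read in the same way. Rpsa, which also serves as a laminin receptor, had an H2Bub1 fold of 6.35 in WT and 3.62 in KO stem cells and of 3.56 and 4.72 in fibroblasts. Its Pol II promoter fold was 11.1 and 8.55 in stem cells and 33.7 and 20.6 in fibroblasts. Rps12, the member with the largest decrease of H2Bub1 fold in stem cells (-0.86 on the log2 scale), had 6.89 in WT and 3.81 in KO there, and 3.96 and 3.96 in fibroblasts. Its Pol II fold was close between genotypes, with 16.1 and 16.3 in stem cells and 30.3 and 30.2 in fibroblasts.

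Rpl5 and Rpl11, which bind Mdm2 when ribosome assembly fails, differed from each other. The H2Bub1 fold of Rpl5 was 6.03 in WT and 4.93 in KO stem cells and 4.403 and 6.64 in fibroblasts, while that of Rpl11 was 5.32 and 6.59 in stem cells and 4.06 and 6.56 in fibroblasts. Rpl11 thus was higher in KO in both cell types. Its record spans 25164 bp, of which H2Bub1 covered 20.7% and 21.03% in stem cells and 15.2% and 24.9% in fibroblasts. Its coverage was under 50% in all 4 libraries.

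Rps6, the substrate of the S6 kinases, had Pol II folds of 5.13 in WT and 5.47 in KO stem cells and 23.9 and 22.3 in fibroblasts, and H2Bub1 folds of 5.74 and 4.47 in stem cells and 3.68 and 4.52 in fibroblasts. Rps19, mutated in Diamond-Blackfan anaemia, had Pol II folds of 12.7 and 14.2 in stem cells and 24.3 and 27.4 in fibroblasts, and was thus slightly higher in KO in both. Its H2Bub1 fold was 7.37 and 4.998 in stem cells and 3.47 and 5.56 in fibroblasts. Rps27a, which encodes ubiquitin fused to a 40S protein, had Pol II folds of 11.9 and 10.2 in stem cells and 24.6 and 15.03 in fibroblasts. H2Bub1 covered 100% of Rps27a in WT and 83.04% in KO stem cells and 64.2% and 100% in fibroblasts.

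Rpl38, a 60S protein known for its part in the translation of Hox mRNAs, had Pol II folds of 7.91 in WT and 10.7 in KO stem cells and 29.1 and 17.4 in fibroblasts, so its direction differed between the cell types. Rpl13a, a snoRNA host known for its part in silencing of inflammatory mRNAs, had H2Bub1 folds of 4.34 and 4.03 in stem cells and 2.99 and 4.495 in fibroblasts. Rpl7a, with the longest pyrimidine run, was inside H2Bub1 peaks over its whole length in all 4 libraries. Its Pol II fold was 11.97 in WT and 8.28 in KO stem cells and 22.5 and 23.96 in fibroblasts.

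Among the paralogue genes, those of restricted expression carried little Pol II. Rpl39l had a Pol II promoter peak in WT stem cells alone (fold 4.37) and H2Bub1 over 25.2% and 28.7% of its length in WT and KO stem cells and 0% in fibroblasts. Rpl10l had no Pol II in any library and H2Bub1 in KO stem cells alone, over 54.2% of its 1023 bp. Rpl3l had H2Bub1 over 8.76% of its length in KO stem cells and none elsewhere. Rps27rt, Rpl10l and Rpl3l were the members with H2Bub1 in KO but not WT stem cells, against 9.53% of all genes, and Rps27rt was the 1 such member in fibroblasts, against 22.9%. The fibroblast count depends on the threshold of the lists, since with peaks of a -log10 q of at least 3 alone 27 of 78 members had H2Bub1 in KO but not WT fibroblasts, against 43.7% of all genes.

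The other paralogue genes had Pol II at their promoters in all 4 libraries. Rpl36al had the largest rise in KO stem cells, with a Pol II fold of 5.75 in WT and 10.7 in KO, against 32.6 and 33.9 in fibroblasts. Its H2Bub1 fold was 5.06 and 7.17 in stem cells and 2.65 and 5.72 in fibroblasts, and its covered share rose from 66.7% to 100% and from 29.6% to 100%. Rps27l, a target of p53, had H2Bub1 folds of 7.18 and 9.54 in stem cells and 3.53 and 6.68 in fibroblasts, while Rps27 had 3.92 and 4.16 in stem cells and 3.15 and 4.37 in fibroblasts. Rpl22l1 had Pol II folds of 7.29 and 7.097 in stem cells and 31.6 and 24.95 in fibroblasts, while Rpl22 had 3.75 and 4.62, and 15.1 and 7.95. Of the 5 paralogue genes with an H2Bub1 ratio in stem cells, 4 were higher in KO, while 6 of 30 small subunit and 6 of 40 large subunit genes were, against 65.7% of all genes. A share over 5 paralogue genes is too coarse to be set beside that of all genes, and the difference between them and the other members was not tested.

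A further 9 ribosomal protein genes fall outside the rule. Among them are Rplp0, Rplp1 and Rplp2 of the P stalk, Fau, which encodes a fusion with a ubiquitin-like protein, and the X-linked Rps4x, Rpl10, Rpl36a and Rpl39. All 9 had a Pol II promoter peak in all 4 libraries, against 26.1% of all genes, with median folds of 7.86 in WT and 6.75 in KO stem cells and 27.96 and 21.5 in fibroblasts. Rplp0 had a fold of 8.199 in WT and 11.7 in KO stem cells and of 38.9 and 51.2 in fibroblasts. Their H2Bub1 fold was lower in KO for 8 of 9 in stem cells and higher for 7 of 8 in fibroblasts, against 34.3% and 82.6% of all genes, with median log2 ratios of -0.14 and 0.36.

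A list of 17 other genes with TOP mRNAs or roles in translation, among them the elongation factors Eef2 and Eef1b2, the poly(A)-binding protein Pabpc1 and Rack1, was set beside the members. A Pol II promoter peak was found at 14 of them in each stem cell list and at all 17 in both fibroblast lists, against 35.3% and 32.1% of all genes in WT and KO stem cells and 55.3% and 52.3% in fibroblasts. Their log2 ratio of Pol II fold had a median of -0.09 in stem cells and -0.26 in fibroblasts. The H2Bub1 fold was lower in KO for 12 of 17 in stem cells and higher for 15 of 17 in fibroblasts, against 34.3% and 82.6% of all genes, with medians of -0.20 and 0.40. Eef2, which drives translocation, had H2Bub1 folds of 4.96 and 4.03 in stem cells and 3.89 and 3.43 in fibroblasts, and with Eef1a1 was lower in KO in both cell types.

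The genes of the mitochondrial ribosomal proteins, also 78 autosomal genes, served as a comparison with the same kind of product. Their promoters had a Pol II peak in 54 and 48 genes in WT and KO stem cells and in 76 and 76 in fibroblasts, with median folds of 4.502, 4.35, 14.01 and 11.3. Their share inside H2Bub1 peaks had a median of 21.5% in WT and 57.3% in KO stem cells and 0% and 69.1% in fibroblasts. In stem cells their median of KO minus WT was 27.5 points (19.7 to 35.4), while that of the cytosolic genes was 0. Most cytosolic genes were already wholly inside H2Bub1 peaks in WT stem cells and could not gain. Their median log2 ratio of H2Bub1 fold was 0.15 (0.11 to 0.23) over 70 genes in stem cells and 0.27 (0.18 to 0.42) over 37 genes in fibroblasts. Another 41 had H2Bub1 in KO fibroblasts alone and thus no ratio there. The median log2 ratios of the cytosolic genes were -0.14 in stem cells and 0.38 in fibroblasts. The difference between the sets was not tested, since each genotype is 1 library.

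Within the list, features that the rule did not use were compared. The 27 snoRNA hosts had a median Pol II promoter fold of 9.72 (7.45 to 11.6) in WT stem cells, while the members without an annotated snoRNA had 7.78 (7.01 to 8.003), and the KO medians were 8.08 and 7.85. In fibroblasts the medians were 25.6 and 25.2 in WT and 21.6 and 19.5 in KO. Members with a run of at least 8 pyrimidines had a median fold of 7.86 (6.17 to 9.89) in WT stem cells and 25.9 (22.5 to 30.3) in WT fibroblasts, while those with shorter runs had 7.87 (7.33 to 9.56) and 27.95 (22.1 to 31.3). The runs were read at RefSeq starts and the folds at GENCODE starts, which lay within 100 bp of each other for 46 of the 59 members matched. The intervals of the groups overlapped in the WT lists. Longer members had a smaller share inside Pol II peaks, with Spearman's rho between length and share of -0.42 in WT stem cells and -0.35 in WT fibroblasts, as a description over 78 genes. The share is the covered length divided by the gene length, so a negative rho is partly built in.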

How the data were processed

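Mouse H2Bub1 and Pol II ChIP-seq peak lists of WT and KO mESCs and MEFs were analysed, with 1 library per group. Of the 16 samples, 8 (inputs and Ser2P Pol II) were not analysed here. Per the submitters' processing notes, bcl2fastq 2.17.1.14, Bowtie 1.0.0, MACS2 2.1.1.20160309 and the mm10 build were used, and peaks were deposited per library. The control, thresholds and read depths behind the lists are not given in the sources used here.

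The fold enrichment of each peak, its -log10 p and -log10 q values and, for Pol II, the summit were deposited by the authors as MACS2 wrote them. The study scaled its signal (H2Bub1 by size factors over intergenic regions, Pol II by mapped reads), and its methods place the scaling before peak calling without saying how it entered the lists. From them, the strongest Pol II peak within 1000 bp of each GENCODE M21 TSS, the share of each gene record inside peaks, and the overlap-weighted H2Bub1 fold were computed for all 20807 autosomal protein-coding genes with pandas 2.3.3 and numpy 2.4.6 under Python 3.11.15, intervals with scipy 1.17.1, and plots with matplotlib 3.10.9. A peak counted from 1 bp of overlap. A ratio needed a peak in both genotypes. Percent intervals are exact binomial and median intervals exact order-statistic ones, at 95%, covering counting error over genes only. No depth-based interval was possible.

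The members and lists were chosen with earlier results of these data known. Named members were the extremes of each measure, members with a call in some libraries, paralogues and genes of known roles. Rpl27, the shares of Rps9 and Rpl37a, the extremes of H2Bub1 fold, Rplp0 and Eef2 were singled out after their values were seen. Some genes that the rule names are not reported here. The code was tested on simulated peaks. Alternatives tried were a stricter q, equal peak numbers, other promoter and start definitions, and subsets of members.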

Additional observations from a re-analysis of the deposited data

Results flagged for a closer look

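The median log2 ratio of H2Bub1 fold, KO over WT, was -0.14 in mESCs and 0.38 in MEFs for the ribosomal protein genes, so its sign differed between the cell types. For all genes it was 0.07 and 0.34. The difference between the cell types was not tested, since each rests on 1 library per genotype. The H2Bub1 fold sets no common level across libraries, so a lower fold does not by itself show less H2Bub1. The share of the gene inside H2Bub1 peaks also moved by more than 10 percentage points in opposite directions for 10 members, lower in KO mESCs and higher in KO MEFs, which was likewise not tested, against 1.32% of all genes. For Rpl27a, KO minus WT was -28.2 points in mESCs and 44.6 in MEFs, for Rps16 it was -18.3 and 35.3, and for Rps27a, the ubiquitin fusion gene, -17.0 and 35.8. For Rpl15 it was -14.5 and 12.7, for Rps20 -13.3 and 23.9, and for Rps24 -13.2 and 19.3. For Rps12 it was -13.0 and 14.9, for Rpl41 -12.6 and 17.4, for Rps23 -11.8 and 55.9, and for Rps7 -10.7 and 23.7.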

How the results depend on the processing

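No paired analysis was possible because each group holds 1 library, and for the same reason no library could be left out. Under 9 planned settings and 2 added after the data were seen, 296 values of 48 results were recomputed. The added settings were members that overlap no other gene, and the body of the best supported transcript. The band of a count was a change by at most 1.5 times. The band of a median or percentage was its interval over genes in the main setting. Of the values, 279 stayed within their band, 17 moved and 0 reversed, and 37 results stayed within it in every setting run. Leaving out members could lower a count within its band. With starts at least 1000 bp from another gene, 52 members instead of 71 had a Pol II promoter peak in WT mESCs, which counted as within it. The number of values within the band is thus no measure of robustness. With a -log10 q of at least 3, MEF WT had 48 members with H2Bub1 instead of 74, a covered share of 42.6% and a fold of 3.77, so that 27 members had H2Bub1 in KO alone instead of 1 and the share difference was 34.1 points; the lower number of peaks is set by the threshold itself. Without the paralogue genes (70 members), 14 instead of 22 had a higher share in KO mESCs, 0 had H2Bub1 in KO alone in either cell type, and 1 had Pol II in WT mESCs alone. With starts at least 1000 bp from another gene (56 members), 0 had H2Bub1 in KO MEFs alone and 1 had Pol II in WT mESCs alone. With equal numbers of peaks, 1 member in each cell type had Pol II in KO alone instead of 0. With a promoter window of 100 bp before and 300 bp after the start, 1 had it in KO MEFs alone and 0 in WT MEFs alone. With the summit in the window, 1 had it in KO mESCs alone, and with supported starts 0 had it in WT MEFs alone. The unknown depth limits all statements on absent peaks.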
